A study of Mus musculus with 4 samples.

Results

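The SLC25 family of mitochondrial carriers was followed in bone marrow macrophages grown from diabetic and control mice in GM-CSF or in M-CSF. Members were all rows whose gene symbol was Slc25a followed by a number, a rule that uses no measured value. This gave 44 genes of the 22700 rows in each library, and 38 of the 44 reached 20 normalised reads in at least 1 library. Folds are given for those 38 only. The study held 4 libraries in 4 groups of 1 library each, all from 12-week-old male mice whose marrow was cultured for 7 to 8 days. Cultures with 20 ng/ml of GM-CSF (named BMGM in the labels) came from db/db mice, labelled BKS.Cg-m+/+leprdb/J and type 2 diabetic, and from db/+ mice, labelled BKS.Cg-m+/+leprdb+/J and control. Cultures with 10 ng/ml of M-CSF (named BMMC) came from the same db/db and db/+ genotypes. The db allele is a mutation of Lepr, the leptin receptor gene, carried by the whole animal, and the db/+ controls carry 1 copy of it by their label. The sources used here do not say whether a library came from 1 mouse or from pooled mice, or whether strand was kept.

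SLC25 proteins sit mostly in the inner mitochondrial membrane, where each exchanges or imports a defined set of metabolites: ADP and ATP, phosphate, amino acids, carboxylates of the citric acid cycle, carnitine esters, cofactors and iron. They share a fold of repeated membrane-spanning modules and link the cytosol to respiration, haem synthesis, the malate-aspartate shuttle and fatty acid synthesis. In macrophages these routes are known to be used differently by cells in different activation states. Depth was 28622703 and 27216109 reads in the GM-CSF db/db and db/+ libraries, against 27590726 and 25603389 reads in the M-CSF db/db and db/+ libraries. SLC25 rows took 0.169% and 0.174% of the reads in the GM-CSF db/db and db/+ libraries, against 0.169% and 0.162% in the M-CSF db/db and db/+ libraries, so the family's share of reads was nearly the same in all 4. The deposited values are read counts scaled by 1 size factor a library, called normalised reads here. Levels of different genes are ranked only per kilobase of transcript. Shares of read pairs within related members are not corrected for transcript length, so they serve to compare cultures and do not rank the genes.

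The start regions of called members at both ends of the culture folds are shown, so that their letters can be read beside those folds. Each has 300 bases, 250 before and 50 after the annotated start, from RefSeq on GRCm38.p6. Shown are the called members with the 3 highest and 2 lowest culture folds among those with exactly 1 promoter in the RefSeq table. Capitals mark matches, on either strand, to an E-box (CACGTG), an ETS motif (CCGGAAG), an NRF1 half-site (TGCGCA), a cyclic AMP response element (TGACGTCA), a GC box (GGGCGG) or a CCAAT box (CCAAT). None of these strings contains another.
Slc25a43 promoter, chrX:36743382-36743681, + strand: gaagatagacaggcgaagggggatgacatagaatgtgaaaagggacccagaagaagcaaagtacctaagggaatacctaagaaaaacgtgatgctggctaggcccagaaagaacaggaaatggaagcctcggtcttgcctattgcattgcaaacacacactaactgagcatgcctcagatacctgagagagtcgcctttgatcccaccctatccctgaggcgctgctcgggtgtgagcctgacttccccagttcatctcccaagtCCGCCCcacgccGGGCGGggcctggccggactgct
Slc25a5 promoter, chrX:36795347-36795646, + strand: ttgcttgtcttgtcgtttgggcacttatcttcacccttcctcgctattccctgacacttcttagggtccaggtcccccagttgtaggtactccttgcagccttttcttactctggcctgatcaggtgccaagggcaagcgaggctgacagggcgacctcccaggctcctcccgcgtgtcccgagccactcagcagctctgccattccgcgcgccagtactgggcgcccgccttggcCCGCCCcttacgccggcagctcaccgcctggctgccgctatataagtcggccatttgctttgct
Slc25a13 promoter, chr6:6217124-6217423, - strand: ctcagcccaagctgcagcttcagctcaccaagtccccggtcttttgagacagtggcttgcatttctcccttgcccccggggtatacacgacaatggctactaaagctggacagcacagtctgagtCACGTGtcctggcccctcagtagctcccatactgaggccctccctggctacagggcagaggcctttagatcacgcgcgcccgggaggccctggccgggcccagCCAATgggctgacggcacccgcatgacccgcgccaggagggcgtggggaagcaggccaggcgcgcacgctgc
Slc25a45 promoter, chr19:5877572-5877871, + strand: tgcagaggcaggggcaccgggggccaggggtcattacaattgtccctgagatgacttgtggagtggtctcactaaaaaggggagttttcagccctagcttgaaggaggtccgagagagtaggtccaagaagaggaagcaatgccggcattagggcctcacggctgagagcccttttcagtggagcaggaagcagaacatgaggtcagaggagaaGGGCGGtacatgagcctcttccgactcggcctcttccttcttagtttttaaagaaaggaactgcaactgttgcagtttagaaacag
Slc25a10 promoter, chr11:120491587-120491886, + strand: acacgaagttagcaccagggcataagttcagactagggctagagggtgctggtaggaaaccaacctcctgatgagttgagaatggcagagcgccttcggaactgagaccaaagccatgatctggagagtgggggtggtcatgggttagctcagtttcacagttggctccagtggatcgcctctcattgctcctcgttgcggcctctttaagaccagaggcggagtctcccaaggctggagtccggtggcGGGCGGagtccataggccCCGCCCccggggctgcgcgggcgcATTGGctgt
Slc25a43 and Slc25a5 are neighbours on chromosome X, with only Gm23613 annotated between them, and both rose in GM-CSF cultures. The printed Slc25a43 sequence holds 2 GC boxes and that of Slc25a5 holds 1. Slc25a13, which also rose, shows an E-box and a CCAAT box. Slc25a10, which fell, holds 2 GC boxes and 1 CCAAT box, and Slc25a45, which also fell, holds 1 GC box. So GC boxes stand in promoters of both directions. Promoters were found for 36 of the 44 members, taken whether or not the member reached 20, 46 promoters in all. A GC box was present in 82.6% of them, against 35.7% of all 32851 mouse promoters in the table and 60.6% of the promoters of genes reaching 20. An E-box was present in 17.4% of member promoters, against 7.15% of all promoters and 9.73% of promoters of genes reaching 20. The ETS motif stood in 15.2% of member promoters, against 8.86% of all promoters and 16.3% of those of genes reaching 20. The cyclic AMP response element was found in 4.35% of member promoters, against 1.79% of all promoters and 2.91% of those of genes reaching 20. The CCAAT box was found in 47.8% of member promoters, against 37.4% of all promoters and 37.7% of those of genes reaching 20. The NRF1 half-site was in 8.70% of member promoters, against 7.76% of all promoters and 13.0% of those of genes reaching 20. Of members with a promoter, the E-box stood in 4 of the 13 that rose (Slc25a1, Slc25a13, Slc25a14 and Slc25a33) and in 1 of the 4 that fell (Slc25a36). The GC box stood in 12 of the 13 and 4 of the 4, the CCAAT box in 6 and 3, and the ETS motif in 3 and 0. The NRF1 half-site and the cyclic AMP response element each stood in 1 and 1. These are matches of letters in a window and no more than that.

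Per kilobase of the longest coding transcript, 2 members stood above the others among the rows named Slc25a. Slc25a5 averaged 5709 normalised reads per kilobase over the 4 libraries, and Slc25a3 averaged 5572. Their order turned between cultures: Slc25a5 had 8091 and 8038 normalised reads per kilobase in the GM-CSF db/db and db/+ libraries, against 3625 and 3083 in the M-CSF db/db and db/+ libraries, and Slc25a3 had 6129 and 6487 in the GM-CSF libraries, against 4817 and 4855 in the M-CSF libraries. Slc25a4 followed at 1841, Slc25a11 at 1658, Slc25a39 at 1466, Slc25a24 at 722, Slc25a10 at 661 and Slc25a44 at 541 normalised reads per kilobase, again as means over the 4 libraries. Slc25a24 stood above Slc25a10 in the GM-CSF libraries and below it in the M-CSF libraries. The abundant end therefore held the ADP/ATP and phosphate carriers that feed ATP synthesis, followed by the oxoglutarate carrier and a glutathione carrier. At the low end of the 38 stood Slc25a47, at 13.3, and Slc25a29, at 7.62 normalised reads per kilobase. Slc25a29, a carrier of basic amino acids, was just inside the minimum, at 8.6 and 13.5 normalised reads in the GM-CSF db/db and db/+ libraries, against 20.0 and 18.1 in the M-CSF db/db and db/+ libraries. Just outside it was Slc25a27, also known as uncoupling protein 4 of brain, at 2.2 and 0 normalised reads in the GM-CSF libraries, against 18.3 and 15.2 in the M-CSF libraries, in the same genotype order. Slc25a34 reached at most 15.7, in the GM-CSF db/+ library. Slc25a21, Slc25a31, Slc25a41 and Slc25a48 stayed at or below 4.8 normalised reads in every library, under the floor of 3 read pairs, which is 5.23 to 6.73 normalised reads. They are not detectable at this depth in these cells.

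**Figure D1:**
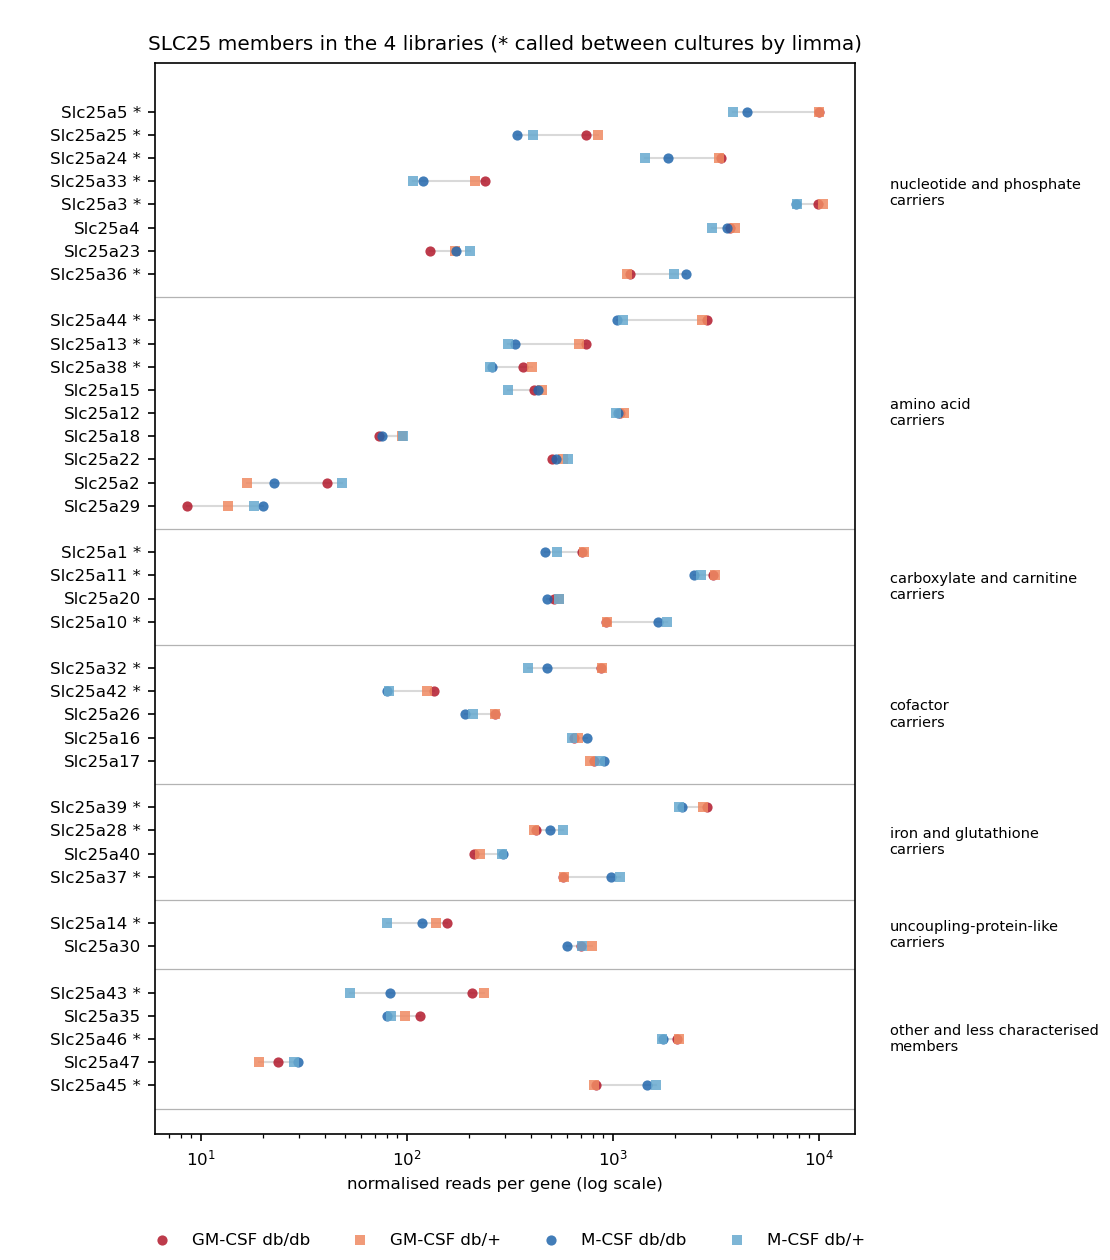
Normalised reads per gene (log scale) of 37 of the 38 SLC25 members reaching 20 in a library, by role. Circles are db/db and squares db/+ libraries, red shades GM-CSF and blue shades M-CSF, and asterisks mark members called between cultures. For Slc25a5, Slc25a44 and Slc25a43 the red points lie to the right of both blue points, and for Slc25a10, Slc25a45 and Slc25a37 to the left.

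The first comparison was of GM-CSF with M-CSF cultures, 2 libraries of opposite genotype on each side. Among the 38 members, 21 were called at a Benjamini-Hochberg adjusted p under 0.05 (55.3%), in an additive limma model of genotype and culture fitted on all 13642 genes that reached 20. Of all genes tested 57.1% were called, so the members' share is that of the background. The split was 16 members higher (29.8% of all genes were called higher) and 5 lower (27.3% of all genes). The median log2 fold of the members was 0.23, and that of all genes was 0.02. Both GM-CSF values lay above both M-CSF values in 20 members (41.6% of all genes) and below both in 10 members (38.9% of all genes). In bulk RNA, fewer cells of a type and less RNA per cell cannot be told apart. With 1 library in each group, the only residual is how far the culture difference departs between the genotypes. P-values set each fold against that residual, on 1 residual degree of freedom moderated over all genes (12.87 prior degrees of freedom). They hold no variation between replicates, since there were none. The split depends on the scaling. With reads scaled to the library total alone (RPM), the median of all genes moved by -0.34 on the log2 scale, and 39 members reached 20, since Slc25a27 was added. Of these, 8 were called higher (16.7% of all genes) and 12 lower (46.5% of all genes), with 63.2% of all genes called. Among the 38, the RPM split was 8 higher and 11 lower. With DESeq2 size factors it was 14 higher (28.3% of all genes) and 6 lower (28.4% of all genes), with 56.6% of all genes called. The count tests on the recovered reads called 13 higher and 6 lower by edgeR (27.6%, 29.2% and, in either direction, 56.8% of all genes), and 9 higher and 4 lower by DESeq2 (19.9%, 19.5% and, in either direction, 39.4% of all genes). Under all 3 scalings 13 members were called in the same direction (44.1% of all genes), 8 higher (16.8% of all genes) and 5 lower (27.3% of all genes). In a model of culture alone, 13 members were called without the GM-CSF db/db library (36.7% of all genes) and 13 without the GM-CSF db/+ library (36.8% of all genes). Without the M-CSF db/db library 21 were called (52.6% of all genes), and without the M-CSF db/+ library 17 (51.5% of all genes). In every setting run, 11 members were called in the same direction (29.3% of all genes).

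The carriers of nucleotides and phosphate had the most members called, but not the largest share alone. Of 10, 8 reached 20, and of these 5 rose and 1 fell, with a median log2 fold of 0.68 (4 and 2 with RPM, median 0.34). That is 75% called, against 57.1% of all genes. The carboxylate and carnitine carriers and the iron and glutathione carriers also had 75% called. Slc25a5, adenine nucleotide translocase 2, exchanges ADP for ATP across the inner membrane. It had 10032.9 and 9967.4 normalised reads in the GM-CSF db/db and db/+ libraries, against 4495.3 and 3822.7 in the M-CSF db/db and db/+ libraries. Both GM-CSF values were more than 2-fold above both M-CSF values (log2 fold 1.27 ± 0.09 SE, limma adjusted p = 1.20e-08). Near-identical copies of Slc25a5 exist in the mouse genome (Slc25a5-ps and Gm5560, with 0 rows in the files), so how their reads were assigned is uncertain. Slc25a4, adenine nucleotide translocase 1, had 3688.9 and 3900.8 normalised reads in GM-CSF cultures of db/db and db/+ mice, against 3562.9 and 3020.9 in M-CSF cultures of the same genotypes. The groups did not overlap, but the difference was not called (log2 fold 0.21, limma adjusted p = 0.0690), and with RPM its sign turned to -0.13. The balance between the translocases therefore differed between cultures: Slc25a5 made up 73.1% and 71.9% of the read pairs of Slc25a4 and Slc25a5 together in the GM-CSF db/db and db/+ libraries, against 55.8% and 55.9% in the M-CSF db/db and db/+ libraries. The exact 95% intervals ran from 70.7% to 74.2% over the GM-CSF libraries and from 54.2% to 57.5% over the M-CSF libraries. Such a share within a library does not depend on how libraries are scaled.

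Slc25a3 carries phosphate, and copper, into the matrix. It read 9880.1 and 10456.4 in GM-CSF db/db and db/+ cultures, against 7764.5 and 7826.1 normalised reads in M-CSF db/db and db/+ cultures. The groups did not overlap and the gene was called higher (log2 fold 0.38 ± 0.08 SE, limma adjusted p = 0.00133), but with RPM the log2 fold was 0.04 and no longer called. The carriers that exchange ATP-Mg for phosphate under the control of calcium are Slc25a23, Slc25a24 and Slc25a25. Slc25a24 had 3345.7 and 3276.1 normalised reads in GM-CSF cultures (db/db, db/+), against 1847.2 and 1433.4 in M-CSF cultures (db/db, db/+). It rose by 1.02 ± 0.10 SE on the log2 scale (limma adjusted p = 4.07e-07). Slc25a25 had 738.0 and 849.0 normalised reads in GM-CSF cultures, against 341.6 and 409.9 in M-CSF cultures, in the same genotype order. This too was a rise of about 2-fold with no overlap of the groups (log2 fold 1.07 ± 0.12 SE, limma adjusted p = 3.72e-06). Its span overlaps that of Naif1 in the annotation. Slc25a23 did not pass the test, with 129.1 and 171.6 normalised reads in GM-CSF cultures, against 172.5 and 203.5 in M-CSF cultures. Of the read pairs of these carriers together, Slc25a24 took 79.4% and 76.3% in GM-CSF db/db and db/+ libraries, against 78.2% and 70.0% in M-CSF. Slc25a25 took 17.5% and 19.7% in GM-CSF db/db and db/+ libraries, against 14.5% and 20.1% in M-CSF. For both genes these shares overlapped between cultures.

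The pyrimidine nucleotide carriers moved in opposite directions. Slc25a33 had 241.0 and 215.4 normalised reads in GM-CSF db/db and db/+ libraries, against 119.4 and 107.5 in M-CSF db/db and db/+ libraries. It was higher in GM-CSF (log2 fold 0.98 ± 0.20 SE, limma adjusted p = 8.22e-04), but DESeq2's Wald test did not call it (adjusted p = 0.0505). Slc25a36 had 1210.3 and 1174.3 normalised reads in GM-CSF libraries of db/db and db/+ mice, against 2261.1 and 1974.6 in M-CSF libraries of the same genotypes. It was lower in GM-CSF, with no overlap (log2 fold -0.82 ± 0.09 SE, limma adjusted p = 2.83e-06). Slc25a33 accordingly took 16.6% and 15.5% of the read pairs of both genes in GM-CSF db/db and db/+ libraries, against 4.98% and 5.12% in M-CSF db/db and db/+ libraries.

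Amino acid carriers comprised 9 members, all reaching 20, of which 3 rose, 6 were not called and 0 fell, with a median log2 fold of 0.08 (2 higher and 2 lower with RPM, median -0.26). The share called was 33.3%, against 57.1% of all genes. Slc25a44, a carrier of branched-chain amino acids known from brown fat, had 2860.5 and 2713.1 normalised reads in the GM-CSF db/db and db/+ libraries, against 1042.1 and 1121.4 in the M-CSF db/db and db/+ libraries. The gap between the groups was far wider than the spread within them (log2 fold 1.36 ± 0.09 SE, limma adjusted p = 1.08e-08, the smallest in the family). Slc25a13 (citrin) and Slc25a12 (aralar) exchange aspartate for glutamate in the malate-aspartate shuttle. Slc25a13 had 736.9 and 685.3 normalised reads in GM-CSF libraries (db/db, db/+), against 333.7 and 311.0 in M-CSF libraries (db/db, db/+). Citrin thus rose by 1.13 ± 0.13 SE on the log2 scale (limma adjusted p = 3.47e-06). Slc25a12 had 1082.3 and 1128.3 normalised reads in GM-CSF libraries, against 1060.4 and 1033.9 in M-CSF libraries, and was not called. Slc25a13 made up 40.5% and 37.8% of the read pairs of both carriers in GM-CSF db/db and db/+ libraries, against 24% and 23.2% in M-CSF db/db and db/+ libraries. Per kilobase, Slc25a13 stood above Slc25a12 in the GM-CSF db/db and db/+ libraries (236 and 220, against 170 and 178). It stood below Slc25a12 in the M-CSF db/db and db/+ libraries (107 and 99.6, against 167 and 163). Slc25a38, which brings glycine into the matrix for haem synthesis, had 365.8 and 404.9 normalised reads in GM-CSF cultures, against 258.8 and 253.0 in M-CSF cultures. It was called higher (log2 fold 0.58 ± 0.16 SE, limma adjusted p = 0.00554), but not with RPM (log2 fold 0.24).

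The remaining amino acid carriers did not pass the test between cultures. For Slc25a15, the ornithine carrier of the urea cycle, the GM-CSF db/db and db/+ libraries had 415.3 and 452.0 normalised reads, against 433.9 and 308.2 in the M-CSF db/db and db/+ libraries. The second ornithine carrier, Slc25a2, had 40.9 and 16.8 normalised reads in GM-CSF db/db and db/+ libraries, against 22.6 and 48.5 in M-CSF db/db and db/+ libraries. The culture groups overlapped in both genes, and Slc25a2 was higher in the db/db library in GM-CSF and lower in it in M-CSF. The glutamate carriers Slc25a22 and Slc25a18 had log2 folds of -0.07 and -0.03, and Slc25a29 had -0.60.

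Of the carboxylate and carnitine carriers, 4 of 5 reached 20, and 2 rose and 1 fell (0 and 1 with RPM), with a median log2 fold of 0.16 (-0.18 with RPM). Among the 4, 75% were called, against 57.1% of all genes. Slc25a10, the dicarboxylate carrier, which exchanges malate or succinate for phosphate, had 930.6 and 932.0 normalised reads in GM-CSF db/db and db/+ libraries, against 1659.0 and 1826.2 in M-CSF db/db and db/+ libraries. It fell by 0.90 on the log2 scale (SE 0.10, limma adjusted p = 1.73e-06), with no overlap. Slc25a1, which exports citrate for fatty acid synthesis, had 707.9 and 725.7 normalised reads in GM-CSF cultures, against 467.9 and 533.6 in M-CSF cultures. It was called higher (log2 fold 0.52 ± 0.12 SE, limma adjusted p = 0.00226), but not with RPM (0.18). Slc25a11, the oxoglutarate-malate carrier, had 3049.9 and 3122.5 normalised reads in GM-CSF libraries, against 2485.1 and 2688.0 in M-CSF libraries. Its log2 fold of 0.26 ± 0.08 SE was called (limma adjusted p = 0.0186), and turned to -0.09 with RPM. Slc25a11 overlaps Rnf167 in the annotation. Slc25a20, the carnitine-acylcarnitine carrier, was not called, with 518.5 and 547.3 normalised reads in GM-CSF libraries, against 479.2 and 546.9 in M-CSF libraries.

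Among 6 cofactor carriers, 2 rose and 4 were not called, with a median log2 fold of 0.24 (1 higher and 2 lower with RPM, median -0.10). This is 33.3% called, against 57.1% of all genes. Slc25a32, which imports folate and FAD, had 871.4 and 881.6 normalised reads in GM-CSF db/db and db/+ libraries, against 481.0 and 388.1 in M-CSF db/db and db/+ libraries. It rose with no overlap of the groups (log2 fold 1.01 ± 0.13 SE, limma adjusted p = 7.90e-06). Slc25a42, a carrier of coenzyme A, had 135.6 and 125.6 normalised reads in GM-CSF cultures, against 80.2 and 81.8 in M-CSF cultures. That difference was called (log2 fold 0.66 ± 0.24 SE, limma adjusted p = 0.0315), but not with RPM (0.33). The S-adenosylmethionine carrier Slc25a26 (log2 fold 0.41, limma adjusted p = 0.0574), Slc25a16 (-0.05) and the peroxisomal carrier Slc25a17 (-0.17) were among those that did not pass the test.

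Of the 4 iron and glutathione carriers, 1 was called higher and 2 lower (75%, against 57.1% of all genes), with a median log2 fold of -0.37. With RPM it was 0 higher and 3 lower (median -0.71), with DESeq2 size factors 1 and 3, and by DESeq2's test 1 and 1. Mitoferrin 1 (Slc25a37) and mitoferrin 2 (Slc25a28) import iron for haem and iron-sulphur clusters. Slc25a37 had 575.6 and 582.1 normalised reads in GM-CSF db/db and db/+ libraries, against 979.4 and 1080.5 in M-CSF db/db and db/+ libraries. It fell, with no overlap (log2 fold -0.82 ± 0.11 SE, limma adjusted p = 1.72e-05). Slc25a28 had 423.9 and 416.1 normalised reads in GM-CSF cultures, against 493.2 and 574.5 in M-CSF cultures, and was called lower by a small margin (log2 fold -0.34 ± 0.14 SE, limma adjusted p = 0.0456). Slc25a37 made up 57.6% and 58.3% of the read pairs of both mitoferrins in GM-CSF db/db and db/+ libraries, against 66.5% and 65.3% in M-CSF db/db and db/+ libraries. The exact 95% intervals of these shares overlap slightly between cultures: the highest GM-CSF bound was 62.9% and the lowest M-CSF bound 62.0%. Slc25a39 and Slc25a40 carry glutathione. Slc25a39 had 2868.1 and 2746.7 normalised reads in GM-CSF libraries, against 2168.8 and 2096.3 in M-CSF libraries (log2 fold 0.40 ± 0.09 SE, limma adjusted p = 0.00113, and 0.05, not called, with RPM). Slc25a40 had 210.9 and 226.6 normalised reads in GM-CSF libraries, against 291.9 and 289.1 in M-CSF libraries, which missed the threshold (log2 fold -0.40, limma adjusted p = 0.0564). Slc25a39 took 93.2% and 92.4% of the read pairs of both in GM-CSF db/db and db/+ libraries, against 88.1% and 87.9% in M-CSF db/db and db/+ libraries.

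The largest fold of the family belonged to a carrier of unknown substrate, Slc25a43, the neighbour of Slc25a5. It had 207.6 and 237.8 normalised reads in the GM-CSF db/db and db/+ libraries, against 82.8 and 53.3 in the M-CSF db/db and db/+ libraries. The groups were far apart, but the spread between the M-CSF libraries was wide (log2 fold 1.67 ± 0.25 SE, limma adjusted p = 4.45e-05). Slc25a45, another little characterised member, had 825.1 and 807.5 normalised reads in GM-CSF cultures, against 1462.1 and 1615.1 in M-CSF cultures. It had the lowest fold among the called members (log2 fold -0.91 ± 0.10 SE, limma adjusted p = 2.37e-06). Slc25a46, which sits in the outer membrane and takes part in mitochondrial fission and fusion, had 2039.7 and 2083.9 normalised reads in GM-CSF libraries, against 1744.4 and 1735.9 in M-CSF libraries. It was called higher (log2 fold 0.24 ± 0.09 SE, limma adjusted p = 0.0293), and turned to -0.10 with RPM. Slc25a35 and Slc25a47 were not called. Of the members close to the uncoupling proteins, Slc25a14 had 157.1 and 138.0 normalised reads in GM-CSF libraries, against 118.5 and 79.9 in M-CSF libraries, and was called just inside the threshold (log2 fold 0.57 ± 0.23 SE, limma adjusted p = 0.0484), but not under either other scaling. Slc25a30 was not called (0.20).

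**Figure D2:**
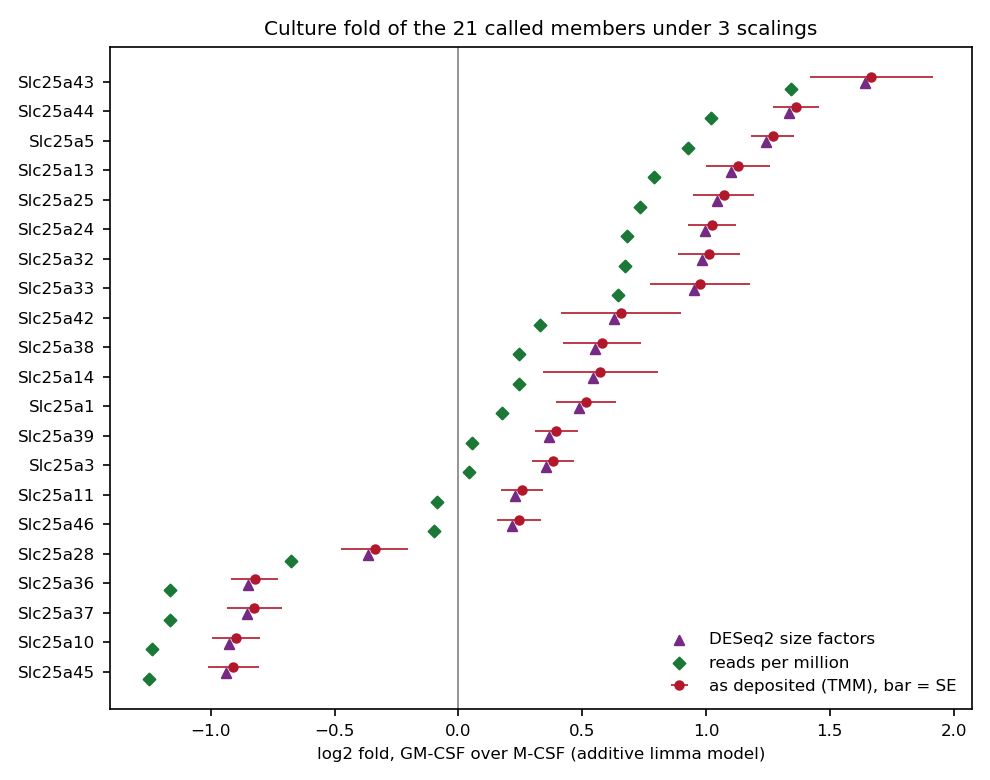
Log2 fold of GM-CSF over M-CSF for the 21 called members, ordered by fold, as deposited (red, bars are SE), with DESeq2 size factors (purple triangles) and with RPM (green diamonds). RPM moves every point to the left, and Slc25a11 and Slc25a46 cross 0, while the members from Slc25a43 to Slc25a33 stay well above it and Slc25a45, Slc25a10, Slc25a37 and Slc25a36 well below.

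Within each genotype the culture comparison had 1 library a side and so no test. On log2(value + 5), 5 members were at least 2-fold higher in GM-CSF in db/db mice (11.3% of all genes) and 0 at least 2-fold lower (15.8% of all genes, and 27.1% either way). These were Slc25a44, Slc25a43, Slc25a5, Slc25a13 and Slc25a25. In db/+ mice 7 were at least 2-fold higher (12% of all genes), the same 5 with Slc25a24 and Slc25a32, and 1 was at least 2-fold lower, Slc25a2 (15.7% of all genes, and 27.6% either way). The lower count in db/+ was 3 with DESeq2 size factors (16.1% of all genes), and 0 with a pseudocount of 20 (12.1% of all genes) or a level minimum of 200 (10.7% of all genes). With RPM and 39 members, 1 was higher (7.95% of all genes) and 6 lower (21.5% of all genes) in db/db, and 2 higher (8.43% of all genes) and 6 lower (20.8% of all genes) in db/+. Slc25a27 was 1 of the 6 lower in each genotype. Counting intervals excluded 1 in 22 members in db/db (66.6% of all genes), above 1 in 17 (34.6%) and below 1 in 5 (32%). In db/+ they excluded 1 in 24 members (66% of all genes), above 1 in 18 (35.5%) and below 1 in 6 (30.4%). Slc25a43 had a ratio of 2.51 in db/db cultures (95% counting interval 1.73 to 3.57) and of 4.46 in db/+ cultures (2.92 to 7.03). Slc25a44 was 2.74 times as high in GM-CSF in db/db (2.49 to 3.03) and 2.42 times in db/+ (2.19 to 2.67). For Slc25a5 the ratio was 2.23 in db/db (2.13 to 2.34) and 2.61 in db/+ (2.47 to 2.75). The intervals cover counting error only, and whether the culture effect differs between genotypes could not be tested.

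**Figure D3:**
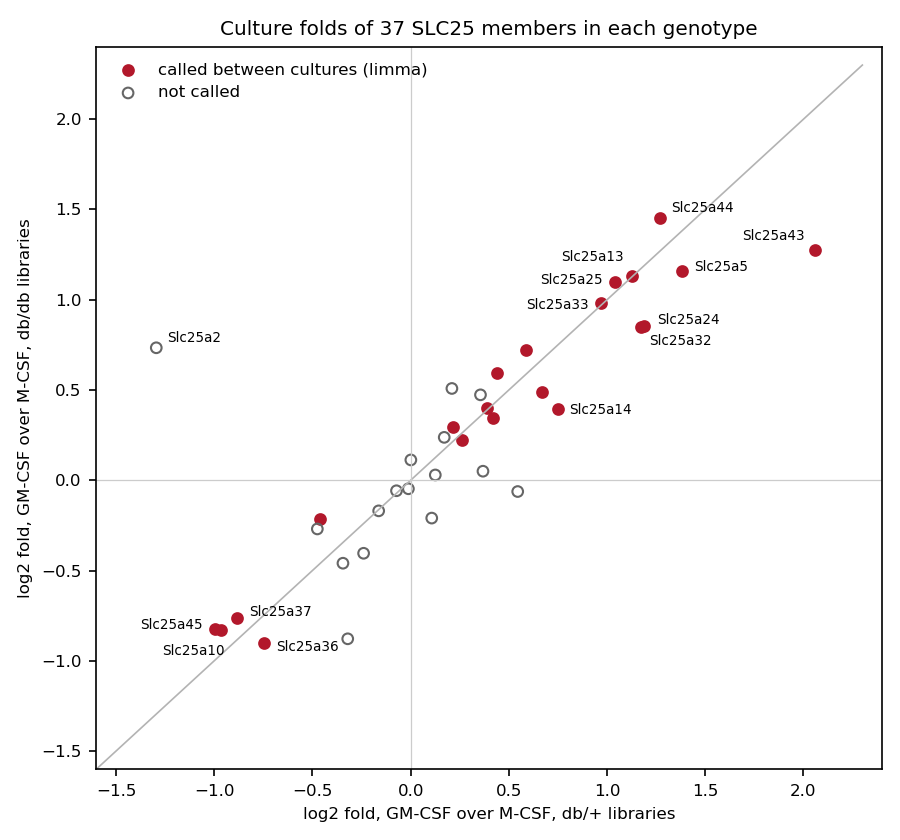
Log2 fold of GM-CSF over M-CSF for 37 of the 38 SLC25 members in db/db libraries (vertical axis) and db/+ libraries (horizontal axis). Filled points are called by the additive limma model, open points are not, and the diagonal marks equal folds. Slc25a43 lies to the right of the diagonal, with a higher fold in db/+ than in db/db, and Slc25a2, not called, lies far off it.

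The genes that work with these carriers were counted in the same fit. That fit called 57.1% of all genes, 29.8% higher and 27.3% lower. With RPM 16.7% of all genes were called higher and 46.5% lower. Of the family's members under other symbols, 5 of 7 reached 20, 2 rose and 0 fell (1 and 3 with RPM). This was 40% of the 5, below the share of all genes. Mtch2, an outer membrane relative of the carriers, had 2279.6 and 2227.5 normalised reads in GM-CSF db/db and db/+ libraries, against 1395.0 and 1320.2 in M-CSF db/db and db/+ libraries (log2 fold 0.73, limma adjusted p = 6.64e-06). The other called gene was Mcart1, now Slc25a51, the NAD carrier (log2 fold 0.41). Ucp2, uncoupling protein 2, had 17752.8 and 16899.9 normalised reads in GM-CSF cultures, against 17261.3 and 22451.1 in M-CSF cultures, and was not called (limma adjusted p = 0.168). Mtch1, with 3372.6 and 3273.9 normalised reads in GM-CSF cultures, against 2930.3 and 3114.1 in M-CSF cultures, was not called either (limma adjusted p = 0.185).

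Pores of the outer membrane and the proteins that bring carriers to their insertion machinery numbered 14, and 9 rose and 0 fell, with a median log2 fold of 0.50 (4 higher and 3 lower with RPM, median 0.16). The share called was 64.3%, against 57.1% of all genes. Timm8a1, a small chaperone of the intermembrane space, had 606.8 and 666.2 normalised reads in GM-CSF db/db and db/+ libraries, against 221.3 and 129.4 in M-CSF db/db and db/+ libraries (log2 fold 1.88). Its relatives Timm8b (1.45) and Timm10 (1.02) were also called higher. Other inner membrane carriers and channels numbered 16, and 10 rose and 3 fell (4 and 4 with RPM), which is 81.25% called. Brp44l, now Mpc1, a subunit of the pyruvate carrier, had 1643.8 and 1486.1 normalised reads in GM-CSF cultures, against 456.6 and 409.0 in M-CSF cultures (log2 fold 1.84, limma adjusted p = 1.96e-09). Sfxn5 moved the other way, with 182.9 and 258.0 normalised reads in GM-CSF cultures, against 808.6 and 824.6 in M-CSF cultures (log2 fold -1.89), as did Sfxn4 (-1.45).

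Enzymes on either side of the aspartate, oxoglutarate and citrate carriers numbered 12, of which 8 rose and 1 fell, with a median log2 fold of 0.45 (5 and 4 with RPM, median 0.11). In this list 75% were called, against 57.1% of all genes. Acly, which splits the exported citrate, had 10829.0 and 10763.8 normalised reads in GM-CSF db/db and db/+ libraries, against 5990.5 and 5901.9 in M-CSF db/db and db/+ libraries (log2 fold 0.86). Acaca, which makes malonyl-CoA for fatty acid synthesis, rose by 1.48 on the log2 scale, and Me1, cytosolic malic enzyme, was lower, at -2.07. In the carnitine shuttle, 1 of 7 genes rose, Crat (0.65), and 2 fell, Cpt1c (-1.36) and Cpt1a (-0.39), against 1 and 3 with RPM. The share called there was 42.9%, below that of all genes. Among 16 genes of iron-sulphur cluster and haem synthesis, 8 rose and 1 fell (3 and 4 with RPM). These made up 56.25% of the list, close to the share of all genes. Alas1, the first enzyme of haem synthesis, had 14738.4 and 15022.4 normalised reads in GM-CSF cultures, against 1765.3 and 1802.4 in M-CSF cultures (log2 fold 3.06, limma adjusted p = 4.02e-13). Cpox (0.81), a later enzyme of haem synthesis, was also called higher, while the mitoferrins, as above, were lower in GM-CSF.

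In the list of ornithine, polyamine and urea cycle genes, 6 of 8 reached 20 and 5 rose, with a median log2 fold of 1.62 (3 higher and 0 lower with RPM). Of the 6, 83.3% were called, against 57.1% of all genes. Arg1, which makes ornithine from arginine, had 14108.0 and 14048.8 normalised reads in GM-CSF db/db and db/+ libraries, against 30.5 and 52.3 in M-CSF db/db and db/+ libraries (log2 fold 8.29). Ass1 (4.54) and Arg2 (2.58) were also called higher, while the ornithine carriers Slc25a15 and Slc25a2 were not called. Of the one-carbon and glycine genes, 10 of 11 reached 20, and 5 rose and 1 fell (3 and 2 with RPM). That is 60% called, near the share of all genes. Mthfd2, of the mitochondrial folate pathway that Slc25a32 supplies, had 2494.8 and 2336.2 normalised reads in GM-CSF cultures, against 711.9 and 492.7 in M-CSF cultures (log2 fold 2.02). Aldh1l1 rose by 1.17, and Aldh1l2, with 77.5 and 40.4 normalised reads in GM-CSF cultures, against 727.6 and 230.2 in M-CSF cultures, was lower (-2.76). Of the regulators of mitochondrial biogenesis, 8 of 9 reached 20, 2 rose, Ppargc1b (2.51) and Tfb2m (0.38), and 1 fell, Polg (-1.0), against 1 and 4 with RPM. Their share called, 37.5%, was below that of all genes. Nrf1 (-0.18), the gene for the factor named with the NRF1 half-site, and Gabpa (0.08), for a single factor of the ETS family, were not called. Other ETS factors are not in the list.

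Markers of other cells moved with the culture, in a fit that called 29.8% of all genes higher and 27.3% lower. Of 8 macrophage markers, 2 were called higher and 4 lower in GM-CSF. Their summed level was 748289 and 749328 normalised reads in GM-CSF db/db and db/+ libraries. In M-CSF db/db and db/+ libraries it was 506997 and 537038, so the sum was higher in GM-CSF. Csf1r, the M-CSF receptor, went the other way, with 33103.3 and 33549.6 normalised reads in GM-CSF libraries, against 105159 and 120627 in M-CSF libraries. The GM-CSF culture markers were called higher in 5 of 6 and lower in 1 of 6. Of 11 fibroblast and stromal markers, 10 reached 20 and all 10 were called lower in GM-CSF. Their summed level ranged from 297.3 to 319.6 normalised reads in GM-CSF libraries and from 22245.6 to 60177.4 in M-CSF libraries, the higher M-CSF value being that of the db/db library. Lum, a defining stromal gene, did not reach 20 in any library. Of 9 neutrophil markers found, all 9 were called lower in GM-CSF, with sums of 784.1 to 914.6 normalised reads in GM-CSF libraries and 15984.1 to 16754.9 in M-CSF libraries. Erythroid markers summed to 37.0 to 39.9 normalised reads in GM-CSF libraries and 373.0 to 528.1 in M-CSF libraries, with 5 of the 6 that reached 20 called lower. Of 5 adipocyte markers only Fabp4 reached 20. Macrophages also express it, and it was called higher, with 8626.8 and 8827.9 normalised reads in GM-CSF db/db and db/+ libraries, against 687.5 and 422.3 in M-CSF db/db and db/+ libraries. The list summed to 8630.0 and 8830.2 in GM-CSF libraries, with 3 of 5 genes at 0 in each, against 709.3 and 439.5 in M-CSF libraries. Of 5 muscle markers 1 reached 20 and was called higher by limma (log2 fold 1.81), and the list summed to 33.3 and 41.6 normalised reads in GM-CSF libraries, against 20.8 and 13.2 in M-CSF libraries. The part of these cells in the SLC25 differences was not tested.

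The second comparison was of db/db with db/+ mice. In the same limma model 0 of the 38 members were called (0.00733% of all genes, that is 1 gene). An unadjusted p under 0.05 was found in 0 members and in 603 of all 13642 genes, so few were to be found among 38. The edgeR quasi-likelihood test and DESeq2 on the recovered reads each called 0 members and gave 0 an unadjusted p under 0.05. Lepr itself had 60.3 and 49.4 normalised reads in the GM-CSF db/db and db/+ libraries, against 21.8 and 6.7 in the M-CSF db/db and db/+ libraries, which is no check of the genotype, since the db allele alters splicing and the files give 1 value a gene.

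In the GM-CSF pair the members were as close as sampling allows. The mean squared deviation of their genotype ratios from 1 was 1.02 times the sampling variance, against 1.42 times for all genes. The counting interval excluded 1 in 1 member (2.63%, against 6.71% of all genes), and lay above 1 in 0 members (4.28% of all genes) and below 1 in 1 (2.43% of all genes). That member was Slc25a3, whose db/db to db/+ ratio was 0.94 (0.91 to 0.98). The median log2 fold was -0.02 for members and 0.01 for all genes. In the M-CSF pair the libraries differed more, by 4.56 times the sampling variance over the members and 13.4 times over all genes. The counting interval excluded 1 in 12 members (31.6%, against 34.1% of all genes), above 1 in 7 (19.8% of all genes) and below 1 in 5 (14.3% of all genes). Slc25a15 had the highest of these ratios, 1.41 (1.15 to 1.73), followed by Slc25a24 at 1.29 (1.17 to 1.42) and Slc25a32 at 1.24 (1.03 to 1.49). Both adenine nucleotide translocases, Slc25a4 and Slc25a5, had a ratio of 1.18. The lowest was Slc25a2, at 0.47 (0.22 to 0.92), followed by Slc25a30 at 0.85, and Slc25a10 and Slc25a45 both at 0.91. The stromal sum was 60177.4 normalised reads in the M-CSF db/db library, against 22245.6 in the M-CSF db/+ library, and its part in these ratios was not tested. Such differences rest on 1 library a side, and neither mouse-to-mouse nor culture-to-culture variation is known.

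On log2(value + 5), 0 members were at least 2-fold apart between genotypes in M-CSF (5.83% of all genes). There Slc25a2 stood at -0.95, just short of 2-fold on that scale, although its plain ratio of 0.47 is past it. In GM-CSF 1 member was at least 2-fold apart, Slc25a2 at 1.07 (1.06% of all genes either way, 0.586% higher), with a plain ratio of 2.43 and an interval of 0.95 to 6.02 that includes 1. The genotype fold had opposite signs in the 2 cultures for 17 of the 38 members and the same sign for 21.

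**Figure D4:**
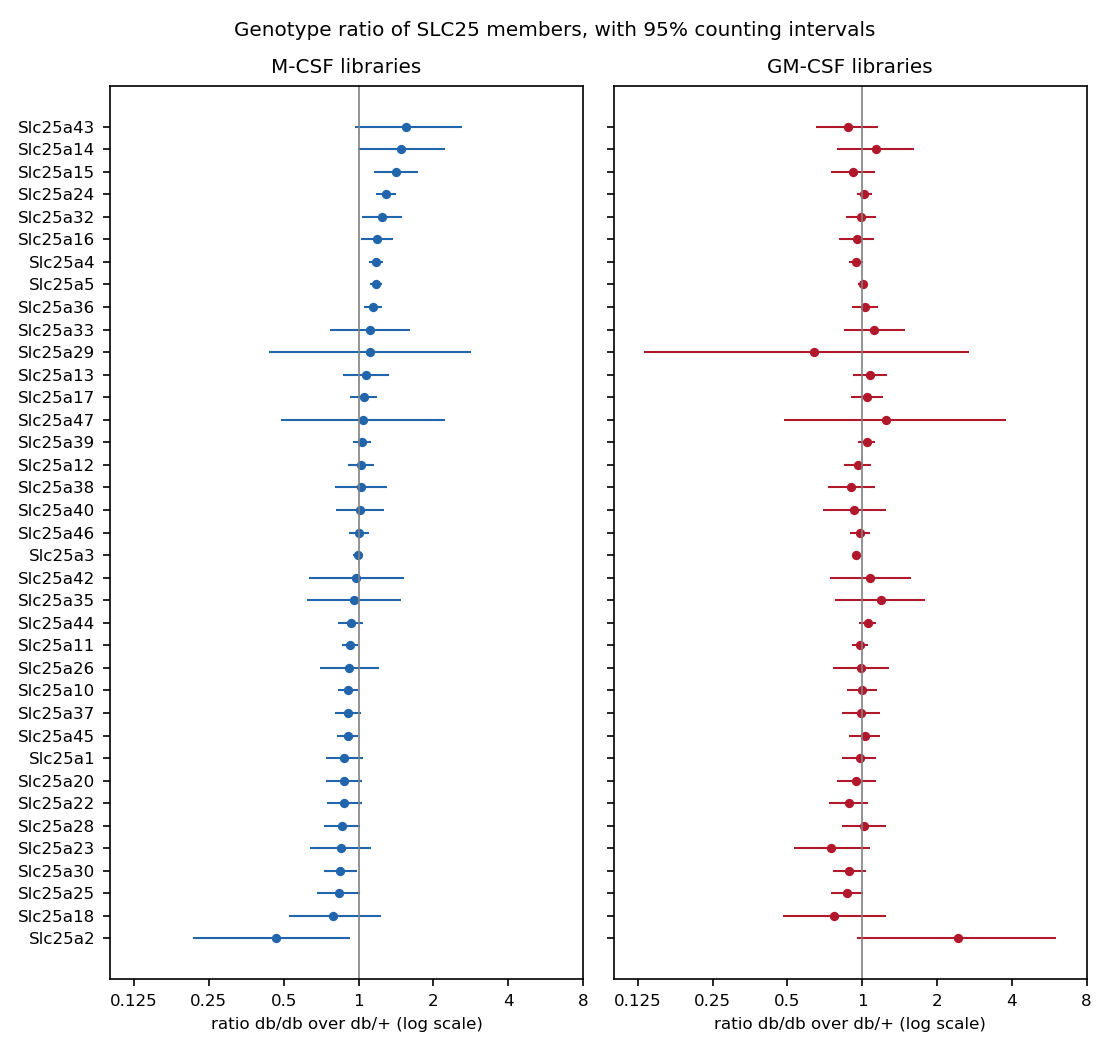
Ratio of db/db over db/+ (log scale) for 37 of the 38 SLC25 members in M-CSF (left) and GM-CSF (right) libraries, ordered by the M-CSF ratio; bars are 95% counting intervals. In GM-CSF nearly all intervals include 1, in M-CSF those of 12 members do not, and Slc25a2 lies at 0.47 on the left and 2.43 on the right.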

How the data were processed

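Total RNA depleted of ribosomal RNA was sequenced in read pairs, per the labels' protocols. In the deposited files the authors give 1 signal value per gene and library, a read count scaled by a size factor and rounded to 1 decimal. The name TMM is the authors' own in the deposited files. TopHat 1.2.0, edgeR and the builds mm8 and mm9 are named in the submitters' processing notes, without a role; the sources used here name no annotation or counting tool. Whole reads were recovered by dividing by the step of 1 read (1.08 and 1.12 in GM-CSF db/db and db/+, 0.871 and 0.951 in M-CSF db/db and db/+). All low values (100%) and 99.8% to 99.9% of all values came out whole, with a tolerance of 0.1. Even multiples were commoner than odd ones (61.3% to 67.1% of values of 2 to 21 reads), so intervals used read pairs. Unused columns of sample values numbered 0.

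Genes reaching 20 in a library were tested on log2(value + 5) with limma 3.58.1 (variance trend, additive genotype and culture terms, 1 residual and 12.87 prior degrees of freedom). P-values were two-sided and Benjamini-Hochberg adjusted over all 13642 genes. A fold on that scale understates the change of low genes. Count tests with edgeR 4.0.16 and DESeq2 1.42.0 on the recovered reads were alternatives; the edgeR test called 19 members for culture. Pairwise ratios have exact conditional binomial 95% intervals and shares exact Clopper-Pearson intervals, both for counting error only. The rule for members uses symbols alone, but the family, its role groups and the partner lists were chosen with earlier results of these data known. Values are printed for members that were called, were at least 2-fold apart in a pairwise comparison or were among the 10 highest by mean, and up to 3 called genes a partner list are named, those with the largest absolute folds. Members named beyond that rule were chosen after their values were seen. The NRF1 half-site was taken after a longer form of that motif had been counted. Promoters come from RefSeq (GRCm38.p6) and transcript lengths from a GENCODE annotation of GRCm38, matched by symbol (44 of 44 members had a length). The files' build differs, so only these promoters have coordinates. Overlaps with other annotated genes were found for 5 members (Slc25a11, Slc25a21, Slc25a25, Slc25a26 and Slc25a35), whose reads cannot be told apart without strand. Values of 1 member and of a few other genes are not reported here, though they remain in the counts.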

Additional observations from a re-analysis of the deposited data

Results flagged for a closer look

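Slc25a2, an ornithine carrier, was picked out because its genotype fold had opposite signs in the 2 cultures and differed at least 2-fold between them. On the log2 scale the fold was 1.07 in GM-CSF and -0.95 in M-CSF (db/db over db/+), so the M-CSF fold minus the GM-CSF fold was -2.03. The gene had 40.9 and 16.8 normalised reads in the GM-CSF db/db and db/+ libraries, against 22.6 and 48.5 in the M-CSF db/db and db/+ libraries, all close to the level minimum of 20. The difference was not tested, since each group has 1 library. The counting interval of the GM-CSF ratio includes 1 (0.95 to 6.02), and that of the M-CSF ratio does not (0.22 to 0.92). Both cover counting error only.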

How the results depend on the processing

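The 21 members called for culture were 13 with DESeq2's Wald test (9 higher and 4 lower, with 39.4% of all genes called) and 13 to 21 when a library was left out in a model of culture alone: 13 without the GM-CSF db/db library (36.7% of all genes), 13 without the GM-CSF db/+ library (36.8%), 17 without the M-CSF db/+ library (51.5%) and 21 without the M-CSF db/db library (52.6%). Over all alternatives the count ran from 13 to 22. In every setting run, 11 members kept their call and direction, as did 29.3% of all genes: Slc25a5, Slc25a13, Slc25a24, Slc25a25, Slc25a32, Slc25a43 and Slc25a44 were higher, and Slc25a10, Slc25a36, Slc25a37 and Slc25a45 lower. With RPM the log2 fold turned to -0.13 for Slc25a4, -0.086 for Slc25a11 and -0.10 for Slc25a46, because that scaling shifts all genes. Members not called also turned, among them Slc25a12 (-0.26, then called lower, limma adjusted p = 0.0384), Slc25a15 (-0.096), Slc25a20 (-0.28) and Slc25a30 (-0.13). For Slc25a2 it turned to 0.26 without the GM-CSF db/+ library and to 0.20 without the M-CSF db/+ library. The members at least 2-fold lower in GM-CSF in db/+ mice, 1 as reported, were 3 with DESeq2 size factors and 0 with a pseudocount of 20 or a level minimum of 200. No member was called for genotype under any alternative run (0 in each). Members at least 2-fold apart between genotypes were 1 in M-CSF with a pseudocount of 1, and 0 in GM-CSF with a pseudocount of 20 or a level minimum of 200, which drops Slc25a2. Genotype entered the culture test as a term, but no pairing by replicate was possible because the labels carry no replicate numbers. As each group has 1 library, no library could be left out of the pairwise comparisons. Depth limits Slc25a2, Slc25a29 and Slc25a47 most, whose pairwise intervals are the widest of the 38.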
